A study of Mus musculus with 2 samples.

Results

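Class II high C1q macrophages were 173 of the 6662 cochlear cells that passed the cell filter, 62 of 3149 in the library from implanted cochleae and 111 of 3513 in the library from non-implanted cochleae. They were chosen by their raw counts of unique molecular identifiers (UMIs, each standing for 1 captured transcript). A cell was a member when H2-Aa, H2-Ab1, H2-Eb1 and Cd74 together gave at least 50 UMIs, C1qa, C1qb and C1qc at least 5, Spp1, Gpnmb, Mmp12 and Mfge8 together under 5, and Cd79a and Cd79b under 3. The levels of these genes in the members are therefore a description. The cells came from mice of the C57BL/6J background with the genotype CX3CR1+/GFP Thy1+/YFP, males and females pooled, killed 33 days after cochlear implantation according to the series text, and were selected with CD11b magnetic beads before droplet capture. All cells of both groups carry the CX3CR1 GFP allele, a knock-in that replaces 1 copy of the fractalkine receptor gene, and the Thy1 YFP transgene. The series text pairs the implanted cochlea with the contralateral one, while the sample label of the other library reads only non-implanted. The labels give neither the number of animals nor whether the electrode carried a drug. With 1 library per group there was no test of implantation: every difference is between these libraries, a gene is called higher or lower only when it moved at least 1.5-fold, and the 95% intervals given cover counting error alone.

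MHC class II molecules present peptides from the endosomes of macrophages, dendritic cells and B cells to CD4+ T cells. H2-Aa, H2-Ab1 and H2-Eb1 encode their chains, and Cd74 encodes the invariant chain that occupies the peptide groove until cathepsins degrade it and H2-DM exchanges its last fragment for a peptide. C1q is the recognition protein of the classical complement pathway, and many tissue macrophages make its 3 chains. In many tissues, macrophages with high class II and Ccr2, the receptor that draws monocytes out of the blood, are replenished from monocytes, whereas macrophages with low class II and no Ccr2 often persist locally.

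The promoters of class II genes share a short module that the transactivator Ciita reads through DNA-bound factors, among them NF-Y, which binds the CCAAT box. The 120 bases before the RefSeq transcription start are shown for H2-Aa and H2-Eb1, which encode chains used by the rule but of different class II molecules. They are also shown for the peptide exchanger chain H2-DMb1, which was higher in these macrophages than in class II low ones. The last is H2-Oa, an H2-DM inhibitor chain that gave 2 and 14 UMIs in the members. The sequences are from RefSeq on GRCm38.p6, at chr17:34287824-34287943 (minus strand) for H2-Aa and, on the plus strand, chr17:34305747-34305866 for H2-Eb1, chr17:34153071-34153190 for H2-DMb1 and chr17:34092259-34092378 for H2-Oa. Capitals mark each ATTGG or its complement CCAAT.
H2-Aa: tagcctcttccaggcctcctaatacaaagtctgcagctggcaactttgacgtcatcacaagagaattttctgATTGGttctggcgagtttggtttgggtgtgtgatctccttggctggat
H2-Eb1: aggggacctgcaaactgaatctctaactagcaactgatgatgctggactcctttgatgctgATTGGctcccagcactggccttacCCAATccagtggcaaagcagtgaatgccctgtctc
H2-DMb1: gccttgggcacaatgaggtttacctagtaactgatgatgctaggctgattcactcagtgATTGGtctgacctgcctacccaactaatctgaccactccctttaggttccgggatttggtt
H2-Oa: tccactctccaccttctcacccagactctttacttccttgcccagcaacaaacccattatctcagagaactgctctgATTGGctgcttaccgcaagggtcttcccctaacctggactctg
ATTGG began 48, 59, 61 and 43 bases before the start in H2-Aa, H2-Eb1, H2-DMb1 and H2-Oa, and H2-Eb1 held a CCAAT 35 bases before it as well. The same letters stood 57 and 90 bases before the start of H2-Ob and H2-DMb2 and in neither of the 2 windows listed for H2-DMa. On either strand, ATTGG lay in 21.3% of all 32851 promoter windows of this length, and the longer CTGATTGG, present in H2-Aa, H2-Eb1 and H2-Oa, in 2.84%. A match describes the window only.

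The libraries held 3231 and 3572 barcodes with 19593003 and 21577033 UMIs, and cells that passed the filter had medians of 4371 and 4238 UMIs. Of the barcodes, 6 occurred in both libraries and none of them was a member. The members had more UMIs than the median cell, with 521 to 22154 UMIs (median 6210.5) in implanted members, 500 to 36636 (median 6373) in non-implanted ones, and medians of 2433.5 and 2419 genes. A subset carried neutrophil transcripts: S100a8 and S100a9 made up at least 5% of the UMIs of 7 of 62 and 20 of 111 members. These cells were deep, with median UMIs of 15252 and 14920, and held 22.4% and 36.1% of all member UMIs. Neutrophil precursor genes such as Camp, Ltf and Elane summed to 62486 and 92142 counts per 1e6 UMIs (CPM) in them, against 612 and 583 CPM in the other members. The highest doublet scores fell on 1 and 2 members, all of this subset, and no cell was removed as a doublet. Each comparison was therefore also made over the 55 and 91 members under 5%, which hold 348261 and 561185 UMIs, and whether the subset is 1 cell or 2 cells in a droplet was not tested.

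The label of the cells was set against marker lists. All 12 macrophage markers were detected in the members of both libraries. Their sum came to 13111 CPM in implanted members and 10243 CPM in non-implanted ones (cell medians 16037 and 11808), against 99.2 and 87.5 CPM in neutrophils. The list includes C1qa, C1qb and C1qc, which the rule required and which gave most of the sum, so that part was fixed in advance. Neutrophils are here cells with at least 10% S100a8 and S100a9 that fell in none of the C1q macrophage or class II high classes described below. Their low C1q and class II levels follow in part from that choice. Csf1r, the receptor for the growth factor macrophages depend on, had a UMI in 87.1% (76.1 to 94.3) of the implanted members and 91.9% (85.2 to 96.2) of the others (median UMIs 6210.5 and 6373), in 54.5% and 52.9% after thinning to 1000 UMIs, and in 10.5% and 9.87% of those neutrophils (median UMIs 4385 and 4249). Adgre1, which encodes F4/80, was at 450.2 and 444 CPM, and Cx3cr1 at 428 and 469 CPM. B-cell defining genes Pax5 and Igkc and T-cell genes Cd3e, Cd3d and Trac were at 0 in both libraries. Of 9 microglia markers, 8 and 7 were detected, with Sall1 at 0 in both, and the list summed to 432 and 348 CPM. Dendritic cell markers summed to 419 and 481 CPM, with 14 of 16 detected in each library and Xcr1 and Ccr7 at 0. In class II low C1q macrophages the same list came to 258 and 268 CPM. Plasmacytoid dendritic cell markers summed to 381 and 346 CPM, with 4 and 3 of 7 detected and Ly6d and Klk1 at 0. The B-cell list summed to 238 and 304 CPM, with 5 and 6 of 11 genes detected. The T or NK list summed to 89.1 and 51.2 CPM, with 2 and 3 of 11 detected. Osteoclast markers came to 158 and 125 CPM, with 5 and 6 of 7 detected and Oscar at 0. Fibroblast or stroma, endothelial and glia or melanocyte lists stayed between 4.46 and 95.7 CPM and mast cell markers at 2.23 and 0 CPM. Neutrophil markers reached 37158 and 73422 CPM and erythroid markers 6962 and 204 CPM, and came to 3024 and 3917 CPM and to 233 and 305 CPM under 5% S100. The 4 marker genes given with the label, H2-Aa, Cd74, C1qa and Mrc1, were all detected, and all but Mrc1 are genes of the rule. Itgam, the gene of the CD11b protein the beads bind, gave 1 and 5 UMIs in all members together, so transcript counts do not check that selection.

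The thresholds cut through a continuum of depth. Members just above the class II limit (50 to 59 UMIs) were 3 and 6 cells with median totals of 778 and 1112.5 UMIs and median C1q counts of 13 and 13.5. Cells just below it (40 to 49 UMIs) were 6 and 8, with median totals of 765.5 and 6181 UMIs and C1q counts of 12 and 7.5. In the non-implanted library, 4 of those 8 carried at least 5% S100a8 and S100a9. As a share of each cell's RNA, class II ranged from 3701 to 127230 CPM (median 47978) over implanted and from 2729 to 195988 CPM (median 45718) over non-implanted members. Cells just below the limit had median shares of 55716 and 10259 CPM. Over all class II low C1q macrophages the medians were 533 and 998 CPM, but the highest reached 82677 and 79566 CPM. Of these class II low cells, 32 and 26 had under 1000 UMIs, against 7 and 7 members. Some cells classed as low were therefore shallow cells with a high class II share.

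**Figure D1:**
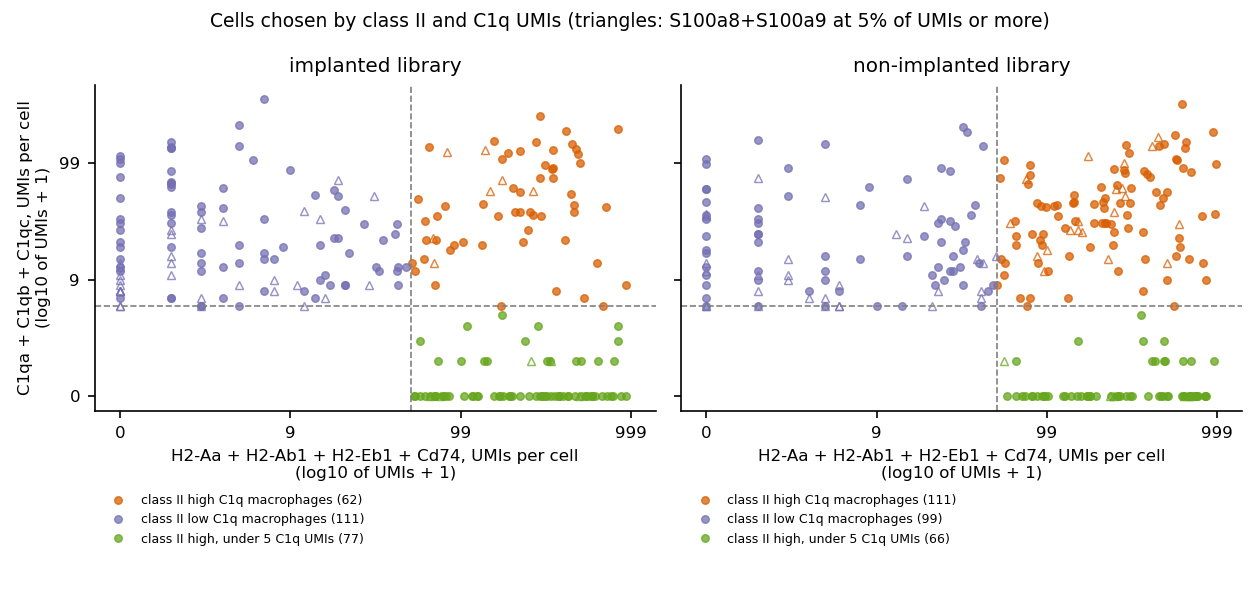
Each point is 1 cell, placed by its summed class II UMIs (H2-Aa, H2-Ab1, H2-Eb1, Cd74) and its summed C1q UMIs on log10(UMIs + 1) axes, 1 panel per library, with dashed lines at the limits of 50 and 5 UMIs and triangles for cells at 5% S100a8 and S100a9 or more. The members fill the upper right of each panel, 62 implanted and 111 non-implanted, and adjoin the class II low and the C1q low cells with no gap.

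Members formed a smaller share of the implanted library than of the other. Their share was 1.97% (1.51 to 2.52, exact binomial) in the former and 3.16% (2.61 to 3.79) in the non-implanted library, a difference of -1.19 percentage points (-1.95 to -0.430). Class II low C1q macrophages, which met the same rule with under 50 class II UMIs, were 111 and 99 cells, 3.52% and 2.82%. C1q macrophages with 5 or more UMIs of the Spp1, Gpnmb, Mmp12 and Mfge8 set, which the rule leaves out, were 44 and 11 cells. Of all C1q macrophages, the members made up 28.6% (22.7 to 35.1) after implantation and 50.2% (43.4 to 57.0) without it, and of those without the Spp1 set 35.8% (28.7 to 43.5) and 52.9% (45.9 to 59.8). Class II high cells with under 5 C1q UMIs ran the other way, 77 and 66 cells or 2.45% and 1.88%. Cells at 5% S100a8 and S100a9 or more are counted in these shares. Cell numbers per cochlea were not measured.

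Relative to all UMIs, the class II chains of the rule were nearly alike in the members of both libraries. H2-Aa was at 7479 CPM in implanted and 7152 CPM in non-implanted members, H2-Ab1 at 5652 and 5438, H2-Eb1 at 6049 and 6513, and Cd74 at 18239 and 18467, with ratios of 1.05, 1.04, 0.929 and 0.988. Without the neutrophil-transcript cells the ratios were 0.959, 0.938, 0.85 and 0.891. The C1q chains were at 3305 and 2477 CPM for C1qa, 3441 and 2597 for C1qb and 2048 and 1585 for C1qc, ratios of 1.33, 1.33 and 1.29, which came to 1.17, 1.18 and 1.12 under 5% S100. None of these class II and C1q genes reached 1.5-fold. The rule set the same lower limits on them in both libraries, so their likeness is in part fixed by the choice of cells.

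Over 6226 genes with at least 30 UMIs in the members of both libraries together, 11.1% were at least 1.5-fold higher in implanted members and 9.12% at least 1.5-fold lower, on the scale log2(CPM + 5), and the median gene moved by 0.07. Under 5% S100, the shares over 5168 genes were 11.1% and 9.50%. Because single deep cells can carry a sum, a further count was added after values were seen: genes past 1.5-fold in the same direction over all members, under 5% S100, without the cell richest in the gene, and with the same weight for each cell. It held 274 genes higher (4.40% of those tested) and 298 lower (4.79%). Some genes in it had under 30 UMIs once cells were left out. Counts in the gene lists are read against these shares.

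Most genes that load class II were within 1.5-fold between the libraries. Of 10 loading genes tested, 2 were higher (Ctsb and Ctsz), none lower, and the median was 0.18; under 5% S100, 1 was higher, 1 lower and the median -0.00. H2-DMa, a chain of the peptide exchanger, was at 374 CPM (320 to 436) in implanted and 466 CPM (422 to 513) in non-implanted members, and at 413 and 633 CPM under 5% S100, a ratio of 0.654. H2-DMb1, its partner chain, was at 368 and 428 CPM, and at 436 and 556 CPM under 5% S100, short of 1.5-fold; it is a close paralog of H2-DMb2, so the split between them is uncertain. March1, the ubiquitin ligase that takes class II off the surface, was at 160.5 and 208 CPM. Ctss, the cathepsin S that trims the invariant chain, was at 1981 and 1616 CPM. The exception was Ctsb, cathepsin B, with 2064 CPM (1933 to 2201) against 1097 (1029 to 1168), a ratio of 1.88 (1.72 to 2.06), and higher in all 4 ways of counting.

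Ciita, the transactivator of class II genes, gave 84.7 CPM (59.9 to 116) in implanted and 123 CPM (101 to 148) in non-implanted members, a ratio of 0.689 (0.463 to 1.01) that is short of 1.5-fold, and 109 and 173 CPM under 5% S100, a ratio of 0.631. It had a UMI in 27.4% (16.9 to 40.2) and 45.0% (35.6 to 54.8) of members, but in 7.27% and 7.69% once each cell was thinned to 1000 UMIs, so the shares of cells give no order. In the neutrophils, which by their definition leave out the class II high classes, Ciita had a UMI in 0 of 2091 and 2 of 2543 cells. None of the 5 class II transcription genes tested was past 1.5-fold in either direction over all members (median -0.21), and under 5% S100 Ciita and Nfyc, an NF-Y subunit, were lower. Irf8, another regulator of antigen-presenting cells, is listed at 0 in both libraries. Whether the cells lacked its transcripts or the counts missed them was not tested, so the 0 is not read as absence.

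Ligands that tune T cells were mixed. Of 10 tested, 1 was higher and 1 lower, with a median of 0.05, and under 5% S100 none was higher and 2 were lower. Cd86, a costimulatory ligand for CD28, was at 998 and 774 CPM, and Cd83, which stabilises class II on the surface, at 1600 CPM and 1315 CPM; neither passed 1.5-fold. Cd274, which encodes the inhibitory ligand PD-L1, was lower in all 4 ways, with 22.3 CPM (10.7 to 41.0) in 7 of 62 implanted members and 56.9 CPM (42.3 to 75.1) in 22 of 111 non-implanted members. With the Spp1-set cells let in, its log2 ratio was -0.11. Of 14 class I presentation genes tested, 1 (Psmb9) was lower and none was past 1.5-fold in all 4 ways.

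Ccr2 and the lectin genes Cd209a, Clec10a and Mgl2 were lower in implanted members. Ccr2 was at 321 CPM (271 to 378) in implanted members and 495 CPM (450 to 544) in non-implanted ones, a ratio of 0.648 (0.533 to 0.784), and at 399 and 718 CPM under 5% S100. It had a UMI in 38.7% (26.6 to 51.9) of the implanted members and 54.1% (44.3 to 63.6) of the others, in 23.6% and 37.5% after thinning, and in 1.43% and 1.30% of neutrophils. The intervals of these shares overlap. Cd209a, a lectin of monocyte-derived dendritic cells, gave 13.4 CPM (4.91 to 29.1) in 2 implanted members and 117 CPM (95.7 to 142) in 12 non-implanted ones, a ratio of 0.114 (0.0409 to 0.257), and was lower in all 4 ways. The lectins Clec10a and Mgl2, both in the resident macrophage list, were at 71.3 and 115 CPM and at 73.5 and 153 CPM, also lower in all 4 ways; thinned to 2000 UMIs a cell, their log2 ratios were -0.18 and -0.11. Clec10a and Mgl2 are neighbours on chromosome 11 and belong to 1 lectin family. The 11 monocyte markers, Ccr2 among them, summed to 2289 and 3658 CPM over all members and to 1166 and 1342 CPM under 5% S100, with Vcan at 0. Plac8 in that list was at 91.4 and 102 CPM. Ccr2 lies at chr9:124101950-124113557 (plus strand) and Cd209a at chr8:3743397-3748984 (minus strand) on GRCm38.

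The resident macrophage list held changes in both directions. Of 17 genes tested, 5 were higher and 2 lower (median 0.40), and 3 (Igf1, Folr2, Pf4) and 2 (Clec10a, Mgl2) were so in all 4 ways. Igf1, which encodes insulin-like growth factor 1, was at 185 CPM (147 to 229) in 18 of 62 implanted and 52.4 CPM (38.4 to 69.9) in 21 of 111 non-implanted members, a ratio of 3.53 (2.43 to 5.18), and its log2 ratio was 1.73 over all members, 1.98 under 5% S100, 1.70 without the richest cell and 1.30 with cells weighted alike. Pf4, a chemokine that resident macrophages express, was at 588 CPM (520 to 664) and 370.1 CPM (331 to 413), and platelet markers other than Pf4 added little, with the 5-gene platelet list summing to 602 and 372 CPM. Folr2, a folate receptor of perivascular and resident macrophages, was at 35.7 and 18.2 CPM but in 6 cells of each library. Mrc1, the mannose receptor, was past 1.5-fold in neither direction, with 426 and 471 CPM. Mertk, a receptor for dying cells, was at 247 CPM (204 to 298) and 107 CPM (86.5 to 131), but with the same weight for each cell its log2 ratio was 0.38. It had a UMI in 32.3% and 31.5% of members, in 16.4% and 6.73% after thinning, and in 0.191% and 0.197% of neutrophils. None of the 18 core macrophage genes tested moved past 1.5-fold in all 4 ways.

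Over summed UMIs, lipid and lysosome genes tilted upward in implanted members. Of 23 tested, 9 were higher and none lower (median 0.46), against the 11.1% of all genes; under 5% S100, 6 were higher and none lower (median 0.36), and 2 (Lgals3 and Ctsb) were higher in all 4 ways. Lgals3, which encodes galectin-3, was at 1749.5 CPM in 41 implanted and 560.3 CPM in 75 non-implanted members, a ratio of 3.12 (2.79 to 3.50), but 41.9% of the implanted UMIs lay in 1 cell and without the richest cells the log2 ratio was 0.92. It had a UMI in 85.2% and 84.1% of neutrophils as well. With cells weighted alike, only Lgals3, Ctsb and Cd63 of the list were past 1.5-fold, with log2 ratios of 0.78, 0.74 and 0.62. Trem2, a lipid-sensing receptor, was at 472 and 245 CPM, and Cd36, a scavenger receptor for fatty acids, at 249.6 and 128 CPM. Their log2 ratios with cells weighted alike were 0.53 and 0.51, short of 1.5-fold. Lpl, lipoprotein lipase, was at 444 and 279 CPM, but with cells weighted alike its log2 ratio was -0.00. Apoe, the carrier of cholesterol, was at 10840.2 and 8627 CPM, under 1.5-fold.

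Further lists held at most 4 higher genes each. Of 8 complement genes beyond C1q, 1 was higher (Itgax, an integrin chain of complement receptors, at 93.6 and 30.7 CPM in 10 and 18 members) and none lower. Of 17 Fc and clearance receptors, 4 were higher (Mertk, Cd36, Pros1 and Lrp1) and 1 lower (Cd209a). Of 11 matrix and growth factor genes, 3 were higher and none lower: Igf1, Pdgfa and Fn1, fibronectin, which was at 64.6 CPM in 7 and 18.2 CPM in 3 members. Of 9 iron and heme genes, 3 were higher and none lower, and none was so in all 4 ways.

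No inflammatory mediator tested was 1.5-fold lower in implanted members. Of 15 tested, 9 were higher and none lower (median 0.63); under 5% S100, 4 of 13 were higher and none lower (median 0.30), and 3 (Acod1, Il18, Nfkbia) were higher in all 4 ways. Nfkbia, the inhibitor that NF-kappa B induces against itself, was at 1146 CPM (1049 to 1249) against 635 (584 to 690), a ratio of 1.80 (1.60 to 2.04). Il18, a cytokine that inflammasomes release, was at 46.8 CPM in 16 and 15.9 CPM in 12 members. Tnf was at 294 and 147 CPM and Il1b at 1703 and 1125 CPM; their log2 ratios were 0.98 and 0.60 over all members and 0.74 and 0.31 under 5% S100. Atf3, an early stress-response factor that enzymatic dissociation is also known to induce, was at 994 and 575 CPM, higher in all 4 ways, and the heat shock gene Hspa1a at 468 and 724 CPM, lower in all 4. Of 20 immediate early and heat shock genes tested, 1 was higher and 2 lower. The glucocorticoid targets Tsc22d3 (114 and 163 CPM) and Fkbp5 (40.1 and 37.6 CPM) were not past 1.5-fold, and of 10 glucocorticoid response genes tested 1 was higher (Sgk1) and 1 lower (Lcn2, also a neutrophil precursor gene). Under 5% S100, 1 was higher and 3, Tsc22d3 among them, lower.

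Chemokine genes differed in both directions and rested on few cells. Of 16 tested, 6 were higher and 3 lower, and Ccl7, Cxcl10 and Pf4 were higher and Cxcl9 lower in all 4 ways. Cxcl10, a ligand of CXCR3, a chemokine receptor of T cells, was at 172 CPM (135 to 214) in 9 implanted and 48.97 CPM (35.4 to 65.96) in 11 non-implanted members. Cxcl9, its neighbour on chromosome 5 with the same receptor, ran the opposite way, with 13.4 CPM in 2 and 116 CPM in 8 members, 60.8% of the latter in 1 cell. Ccl7, a CCR2 ligand, was at 245 CPM in 10 and 93.4 CPM in 17 members, with 49.1% of the implanted UMIs in 1 cell; it belongs to a cluster of similar genes with Ccl2 and Ccl12.

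Interferon-responsive genes were split as well. Of 15 tested, 3 were higher and 4 lower (median -0.06), and the 4 lower ones, Cxcl9, Gbp2 and Zbp1 among them, were so in all 4 ways. Zbp1, a nucleic acid sensor, gave 17.8 CPM (7.70 to 35.1) in 5 implanted and 41.0 CPM (28.7 to 56.8) in 26 non-implanted members, and Gbp2, a guanylate-binding protein, 13.4 CPM in 5 and 34.2 CPM in 13. These sums are 6 to 8 UMIs in the implanted members, and with the Spp1-set cells let in the log2 ratio of Gbp2 turned to 0.11. Isg15, an interferon-induced ubiquitin-like protein, was higher, at 134 and 58.1 CPM, with 56.7% of the implanted UMIs in 1 cell.

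**Figure D2:**
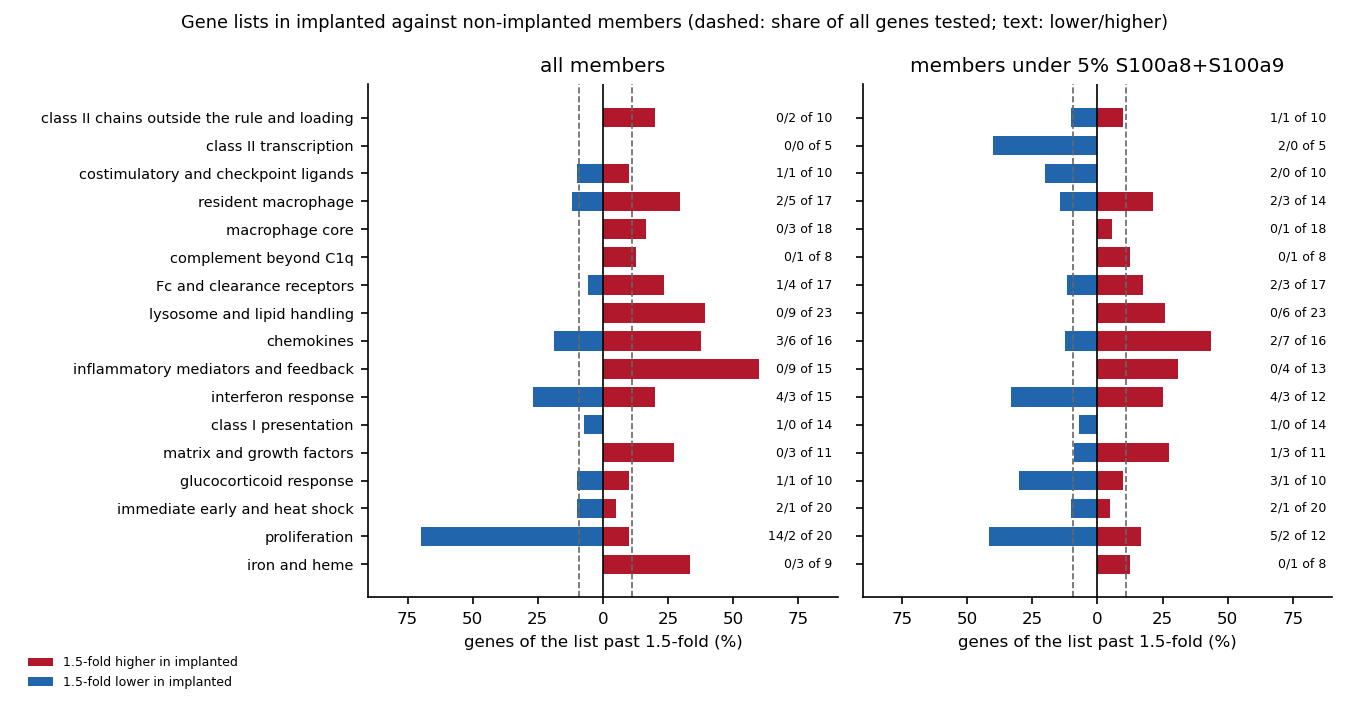
For each fixed gene list, bars give the percent of the list's tested genes at least 1.5-fold higher and lower in implanted against non-implanted class II high macrophages over all members and over those under 5% S100; dashed lines give the percent over all genes tested (11.1 higher and 9.12 lower over all members). Over all members, the bars for lipid handling (9 of 23 higher) and inflammatory mediators (9 of 15 higher) stand above the line on the higher side, and that for proliferation (14 of 20 lower) on the lower side. Bars of other lists pass the lines as well. Among them are chemokines, iron and heme and resident macrophage genes on the higher side and interferon-responsive genes on the lower side.

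Over all members, most cell cycle genes tested were lower in implanted members. Of 20 tested, 2 were higher and 14 lower (median -1.03), and 8 (Ube2c, Nusap1, Tpx2, Cenpf, Birc5, Ccnb2, Cenpe and Cks1b) were lower and 1 (Mcm3) higher in all 4 ways, against 4.79% and 4.40% of all genes. Under 5% S100, 2 of 12 were higher and 5 lower (median -0.38), against 9.50% of all genes lower. Some of the 8 had under 30 UMIs there and were not among the 12. The proliferation genes summed to 1175 and 3780 CPM in members at 5% S100 or more, and to 959 and 1189 CPM in the rest. In the rest, the cell median of the list ran the other way, at 325 CPM in implanted and 227 CPM in non-implanted members. A UMI of the list was found in 43 of 55 and 65 of 91 of these cells. Ube2c, a ubiquitin-conjugating enzyme of mitosis, was at 8.91 CPM (2.43 to 22.8) in 4 implanted and 150.3 CPM (126 to 178) in 18 non-implanted members, and at 5.74 and 53.5 CPM under 5% S100. Mki67, which marks cycling cells, was at 75.8 and 169.7 CPM and came to 83.3 and 98.0 CPM under 5% S100. Mcm3, a DNA replication helicase subunit, went the other way, at 62.4 and 29.6 CPM in 16 members of each library.

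The 24 genes with the largest changes, 12 in each direction among genes of at least 50 UMIs seen in at least 10 members, were past 1.5-fold in the same direction in all 4 ways in 9 and 11 cases. They were chosen by their change over all members, so that way of counting was met in advance, and the other ways reuse the same cells. The count is a description. Hbb-bs and Hbb-bt, near-identical hemoglobin genes, headed the higher genes at 3994 against 110.5 CPM and 1003 against 26.2 CPM, but 97.3% and 97.8% of their implanted UMIs lay in 1 cell, and under 5% S100 they were at 126 against 162 and 25.8 against 41.0 CPM. Hilpda, a lipid-droplet protein, was at 138 CPM (106 to 177) in 14 and 20.5 CPM (12.1 to 32.4) in 13 members, with 50.0% of the implanted UMIs in 1 cell. Slc20a1, a phosphate transporter, was at 116 and 30.7 CPM, and Emp1, an epithelial membrane protein, at 229.6 and 71.7 CPM. Fabp5, a fatty acid carrier, was at 80.2 and 18.2 CPM, with a log2 ratio of 0.38 when cells had the same weight. The other higher genes were Fat3, Plk2, Gm6977 and Gm5835, between 73.5 and 361 CPM in implanted members. Among lower genes outside the cell cycle, Tex14 was at 22.3 CPM in 7 and 113 CPM in 36 members, and Slc2a3, a glucose transporter, at 42.3 and 166 CPM. Cebpe, a transcription factor of granulocytes, was at 26.7 and 132 CPM and fell to 0 and 5.35 CPM under 5% S100. Ica1, at 8.91 and 59.2 CPM, was at 2.87 and 1.78 CPM there.

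**Figure D3:**
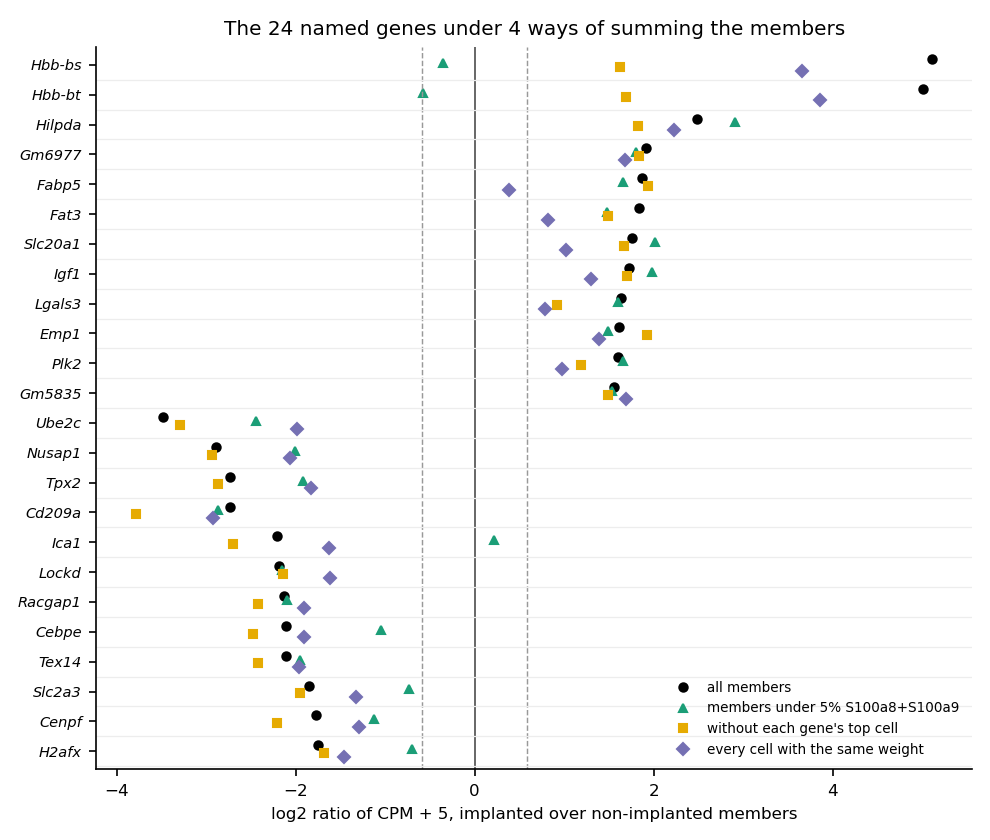
Log2 ratios of implanted over non-implanted class II high macrophages, log2(CPM + 5), for the 24 genes named by size, each under the 4 ways of counting shown by separate symbols. Igf1 stays between 1.30 and 1.98 in all 4, while Hbb-bs runs from 5.11 to -0.35.

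Members were also set against class II low C1q macrophages of the same library. That contrast is the one the rule used, so its values are given without a reading of their counts. In the implanted library, 18.3% of 5336 genes tested were higher in members and 12.9% lower; in the non-implanted library, 11.0% and 11.4% of 6640. Of 5269 genes tested in both, 261 were higher in both and 214 lower in both. Of 10 class II loading genes, 4 were higher and 1 lower in each library, of 6 class II transcription genes 1 and 1, and of 10 costimulatory and checkpoint ligands 4 and 2 in the implanted and 6 and 0 in the other library. H2-DMb1 was at 368 and 428 CPM in implanted and non-implanted members and at 49.4 and 72.7 CPM in class II low cells. H2-DMa was at 374 and 466 CPM against 125 and 124 CPM. Ciita was at 84.7 and 123 CPM against 3.53 and 13.2 CPM. Ccr2 was at 321 and 495 CPM against 72.3 and 76.0 CPM, and had a UMI in 7.21% and 14.1% of class II low cells (3.80% and 6.85% thinned). Cd86 was at 998 and 774 CPM against 492 and 498 CPM.

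Other genes higher in members of both libraries included Clec4b1, a lectin of dendritic cells and monocytes (138 and 116 CPM against 17.6 and 19.8 CPM), and Slamf7, a homotypic receptor of leukocytes (167 and 197 CPM against 31.8 and 51.2 CPM). Pid1, an adaptor that binds lipoprotein receptors, was at 1569 and 1733 CPM against 326 and 562 CPM, and Trerf1, a transcriptional regulator, at 265 and 334 CPM against 38.8 and 74.4 CPM. Lyz1 headed the list, but 91.7% of its UMIs in implanted members lay in 1 cell and it is nearly identical to Lyz2. On the lower side, Sparc, a matrix-binding glycoprotein, was at 22.3 and 18.2 CPM against 245 and 150.4 CPM, with a UMI in 2 of 62 and 4 of 111 members and in 32 of 111 and 14 of 99 class II low cells. Ltc4s, leukotriene C4 synthase, was at 24.5 and 27.3 CPM against 115 and 124 CPM. Ctsl, cathepsin L, was at 214 and 154 CPM against 619 and 296 CPM. Retnlg, a neutrophil gene, was at 493 and 973 CPM against 3422 and 3451 CPM. Cells with at least 5% S100a8 and S100a9 were 31 of 111 and 30 of 99 class II low cells against 7 of 62 and 20 of 111 members. Under 5% S100, 134 genes were higher and 187 lower in members of both libraries, of 4053 tested. H2-DMb1 was then at 436 and 556 CPM against 77.9 and 97.7 CPM, Ccr2 at 399 and 718 against 129 and 122, Ciita at 109 and 173 against 6.78 and 12.2, and Sparc at 5.74 and 26.7 against 430.4 and 263. Cd86 stood at 1111 and 862 CPM against 739 and 769, past 1.5-fold in the implanted library alone, and Retnlg at 121 and 246 against 691 and 189.

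Mertk was at 247 CPM in members against 329.9 CPM in class II low cells after implantation, short of 1.5-fold. Without implantation it was lower in members, at 107 against 235 CPM. Under 5% S100 it was lower in both libraries, at 258 against 589.7 and 139 against 403 CPM. Some genes set the classes apart in opposite directions in the libraries. Ccl8, a monocyte chemokine, was at 109 CPM in members and 711 CPM in class II low cells of the implanted library, and at 253 and 18.2 CPM in the non-implanted one, from 6 to 10 cells in each class. Hpgd, which inactivates prostaglandins, was at 267 and 138 CPM in the implanted library and 155 and 271 CPM in the non-implanted library.

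Against class II high cells with under 5 C1q UMIs, the members had more macrophage and fewer dendritic transcripts. This contrast also used the rule, and 14.4% of 5484 genes were higher and 18.0% lower in implanted members, and 12.2% and 17.1% of 6536 in non-implanted members. Dendritic cell markers summed to 1648 and 1912 CPM in the C1q low cells against 419 and 481 CPM in members. Mertk was at 247 and 107 CPM in members against 27.6 and 8.84 CPM. Igf1 was at 185 and 52.4 CPM against 6.90 CPM in 1 cell and 0 UMIs in 66 cells. Pf4, Stab1 (a scavenger receptor), Cd81 (a tetraspanin) and Vcam1 (an adhesion molecule) were between 179 and 588 CPM in members and between 5.17 and 34.5 CPM in C1q low cells. Ccl12, a monocyte chemokine, was at 221 and 227 CPM in members with no UMI in C1q low cells. Ccr2 was higher in the C1q low cells, at 996 and 923 CPM, as was Plac8, a monocyte gene (1456 and 1009.98 CPM against 91.4 and 102 CPM in members). Flt3, the receptor of dendritic cell growth, was at 102 and 139.7 CPM there against 11.1 and 18.2 CPM, and Itgb7, an integrin chain, at 143 and 170 CPM against 0 and 12.5 CPM. H2-Aa (7832 and 8563 CPM) and Cd74 (23289.8 and 23334 CPM) were within 1.5-fold of the members.

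**Figure D4:**
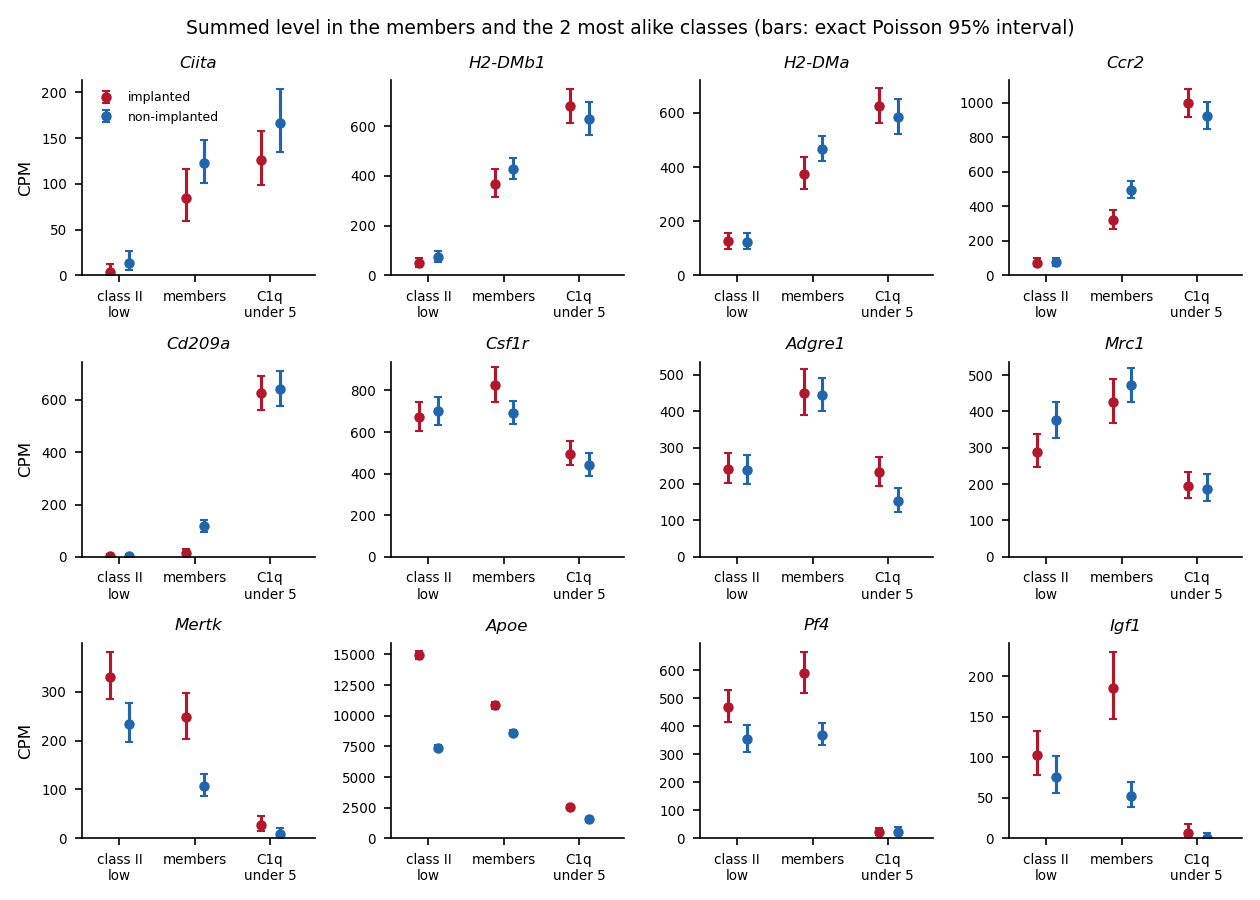
Summed CPM (linear axes from 0) of 12 list and marker genes in class II low C1q macrophages, class II high C1q macrophages and class II high cells with under 5 C1q UMIs, with 1 colour per library and bars for 95% counting intervals. Ccr2 steps from 72.3 to 321 to 996 CPM after implantation and from 76.0 to 495 to 923 CPM without it, and Mertk steps down from 329.9 to 247 to 27.6 and from 235 to 107 to 8.84 CPM.

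Within the members, Ccr2 and Mertk were detected together in some cells and apart in others. Among the 55 implanted members under 5% S100, 17 had a UMI of Ccr2 alone, 12 of Mertk alone, 5 of both and 21 of neither; among the 91 non-implanted ones the numbers were 42, 16, 11 and 22. Cells with neither had median totals of 1599 and 2790 UMIs, against 6266 to 9880 UMIs in the other groups. Of the cells with Mertk, 5 of 17 implanted and 11 of 27 non-implanted ones also had Ccr2, which had a UMI in 22 of the 55 and 53 of the 91; whether they co-occur less often than their frequencies give was not tested. In shallow counts a cell with 1 of the genes may hold transcripts of both.

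The members also varied with how much of their RNA was class II. Each library's members under 5% S100 were split at the median class II share, into 28 and 27 implanted and 46 and 45 non-implanted cells, with median totals of 4232.5 and 7942 UMIs and of 5609 and 5598 UMIs. The split uses genes of the rule and is a description. Ccr2 was at 919 CPM in the upper and 152 CPM in the lower part of the implanted members, and at 1066 and 416 CPM in the non-implanted members. Ciita followed, at 250 and 42.3 CPM and at 276 and 83.2 CPM, as did H2-DMa (634 and 309 CPM, 959 and 349 CPM). Cd209a was found in the upper part alone, at 53.6 and 338 CPM. Csf1r was level across the split, at 839 and 897 CPM and at 939.8 and 889 CPM.

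Other genes parted along this split differently in the libraries. Mertk was at 17.9 CPM in the upper and 373 CPM in the lower part of implanted members, but at 115 and 159.7 CPM in non-implanted members, a ratio of 0.720 (0.441 to 1.16). Mgl2 was at 379.8 and 33.3 CPM in non-implanted members, a ratio of 11.4 (5.95 to 24.5), and at 62.5 and 106 CPM in implanted ones, a ratio of 0.590 (0.216 to 1.40) that is not set apart from 1 by counting error. Clec10a was at 246 and 39.9 CPM, a ratio of 6.15 (3.29 to 12.5), and at 35.7 and 110.1 CPM, a ratio of 0.324 (0.0823 to 0.935). Trem2 was lower in the upper part of implanted members, at 304 and 643 CPM, and in non-implanted members at 292 and 413 CPM, short of 1.5-fold. The upper and lower implanted parts differed in depth, so single-cell detection cannot be set side by side between them, and the difference of the splits between libraries was not tested.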

How the data were processed

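Droplet 3' libraries of CD11b-selected cochlear cells were made with the 10x Genomics v2 kit, per the labels' protocols; part of that protocol describes mice of other ages and another dissection, and the series text was followed for tissue and time. The authors deposited whole-number UMI counts per gene and barcode, made with Cell Ranger 3.0.1 per the file headers, on mm10 (GRCm38) with Seurat named too, per the submitters' processing notes. Barcodes with at least 200 genes and at most 10% mitochondrial UMIs were kept (3149 of 3231 and 3513 of 3572). Member UMIs were summed per library, scaled to 1e6 and compared as log2(CPM + 5) for genes with at least 30 UMIs over both groups; called means at least 1.5-fold. Intervals are exact binomial, Poisson or conditional at 95%, cover counting error only and treat UMIs as independent. No p-value was computed, because each group is 1 library. The named genes are the 12 most changed in each direction with at least 50 UMIs and, between libraries, a UMI in at least 10 members, plus genes of 17 fixed lists and 17 marker lists. For members against another class, the smaller of the 2 libraries' changes ranked the genes. Members and lists were chosen with earlier results of these data known. Doublets were scored with Scrublet (scanpy 1.11.5) but not removed, except as 1 of 17 alternatives. Thinning drew 1000 or 2000 UMIs per cell; at 1000 UMIs, 7 and 7 members were too shallow and left out. Scripts were tested on simulated data in Python 3.11.15, with pandas 2.3.3 for tables, scipy 1.17.1 for intervals, numpy 2.4.6 and matplotlib 3.10.9. Some genes of the lists are not reported here.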

Additional observations from a re-analysis of the deposited data

Results flagged for a closer look

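Ccl8, Ccl5 and Hpgd, 3 genes of the fixed lists, moved past 1.5-fold in opposite directions in the 2 libraries when members were set against class II low C1q macrophages; the difference was not tested. For Ccl8 the log2 ratio was -2.65 after implantation and 3.48 without it, a difference of -6.12, from 6 to 10 cells in each class. For Ccl5 it was -1.25 and 2.11, a difference of -3.36. For Hpgd it was 0.93 and -0.79, a difference of 1.72.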

How the results depend on the processing

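The share of members was lower in the implanted library under 8 of 8 alternative rules and filters, by 0.844 to 1.23 points of all cells and by 10.3 to 19.8 points among C1q macrophages without the Spp1 set. Some alternatives moved the percent of genes called by over 1.5 times. Against class II low cells, 10.2% were higher in implanted members with no Spp1 limit. In non-implanted members, 19.1% were lower without the cells at 5% S100a8 and S100a9, and 19.8% higher after thinning to 2000 UMIs, 21.4% with equal cell weights and 22.2% over cells of 2000 to 10000 UMIs. A pseudocount of 20 CPM gave 6.69% higher and 7.03% lower there, and 6.62% higher and 5.33% lower between implanted and non-implanted members, where equal weights gave 14.9% lower. Of the single log2 ratios between libraries, Hbb-bs and Hbb-bt reversed at a class II limit of 100 UMIs (-0.14 and -0.33), at 1% of UMIs (-0.14 and -0.19) and without the S100 cells (-0.35 and -0.58). Ica1 reversed without the S100 cells (0.21), and Fat3 (-1.003) and Plk2 (-1.42) after thinning. Against class II low cells, Car2 reversed in the non-implanted library at 10 C1q UMIs (0.22) and at 2000 to 10000 UMIs (0.05013), Car2 (0.83) in the implanted library at 2000 to 10000 UMIs, and Retnlg (0.37) and Acod1 (0.35) in the non-implanted library without the S100 cells. Against C1q low cells, Ctsk reversed at 500 genes and 5% mitochondrial UMIs (0.30, non-implanted) and at 2000 to 10000 UMIs (0.12, implanted). The causes were not tested. Between implanted and non-implanted members, 333 of the single-gene values under alternatives lay within the counting interval of the main ratio, 42 lay outside it and 9 reversed. That interval is wide for genes with few UMIs, so values within it can still differ in size. Of the list medians, 236 stayed within the spread of their genes (quartiles) and 36 moved; among the latter, those of costimulatory ligands, core macrophage genes and Fc and clearance receptors changed sign under at least 1 alternative. No paired analysis was possible because each group is 1 library. With 62 and 111 cells and sums of 448699 and 878089 UMIs, genes near 10 CPM rest on a few UMIs.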
